A study of Mus musculus with 2 samples.

Results

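Serpins were named for serine protease inhibitors that share one fold. An inhibitory serpin offers a loop to its protease, is cut there, and traps the enzyme in a complex that is cleared from the blood, and some members have lost this activity and carry hormones or fold collagen instead. The liver is the main source of the plasma serpins, which restrain neutrophil elastase, the clotting cascade, fibrinolysis and complement, whereas the members of clade B mostly stay inside cells. GATA4 is a zinc finger transcription factor that binds WGATAR, that is, GATA with A or T before it and A or G after it.

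All 60 protein-coding genes of the GENCODE M1 annotation whose symbol starts with Serpin were taken from the 22380 protein-coding genes of the mouse genome, and a GATA4 occupied site (OS) was given to a gene when its midpoint lay in the gene body or within 10 kb of it. ChIP with the GATA4 C-20 antibody was made on whole Liver of C57BL/6 x Sv129 mice aged 2 to 3 months by the labels, and liver DNA of the same strain and age without antibody served as input. The study's methods name 2 biological replicates, each of pooled mice, but the labels list 1 ChIP and 1 input sample and each list used here covers both replicates together, with no list per replicate. No value has a replicate error, therefore. In these lists whole liver leaves the cell type of a site unknown, and more cells with the site and stronger occupancy per cell cannot be told apart. The OS common to the SPP and MACS2 peak callers number 4409 and keep the SPP coordinates, and the SPP list of 4811 and the MACS2 list of 5867 peaks were used as support.

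GATA4 OS were found at 5 of the 60 Serpin genes, which held 6 OS between them. Those described here were Serpinb6a, an intracellular protease inhibitor, Serpina12 (vaspin, a secreted serpin of fat tissue and liver), Serpina6 (corticosteroid-binding globulin, the plasma carrier of glucocorticoids) and Serpina3g, a mouse relative of antichymotrypsin. The 5 genes were 8.33% of the family (Wilson 95% interval 3.6 to 18.1), beside 13.7% of all protein-coding genes (3056 of 22380) under the same rule. The interval holds the share of all genes. It covers counting only and takes the 60 genes as independent, although neighbouring genes share windows, and the difference was not tested. SPP alone gave the same 5 genes and 6 OS, beside 14.5% of all genes. MACS2 added Serpina3b, another antichymotrypsin relative, and gave 6 genes (10%, interval 4.7 to 20.1) with 8 peaks, beside 17.3% of all genes.

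The sequence under 5 of the 6 OS is shown because it carries the GATA letters on which the sites can be compared. Each is the plus strand of mm9 (NCBI Build 37), 5′ to 3′, with every WGATAR in capitals, and a WGATAR on the minus strand reads as its reverse complement, so that CTATCA is TGATAG and TTATCA is TGATAA. The stretch labelled Serpina3g is the site counted for that gene, but it lies downstream of Serpina3g and at the start of Serpina3h. The transcribed end of this site is left out.
Serpinb6a, left site, chr13:34058506-34058760: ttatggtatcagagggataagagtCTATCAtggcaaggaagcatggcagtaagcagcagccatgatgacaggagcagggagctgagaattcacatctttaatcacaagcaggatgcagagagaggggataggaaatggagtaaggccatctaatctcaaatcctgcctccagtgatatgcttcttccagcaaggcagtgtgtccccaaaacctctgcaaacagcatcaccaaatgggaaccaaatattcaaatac
Serpinb6a, right site, chr13:34059585-34059727: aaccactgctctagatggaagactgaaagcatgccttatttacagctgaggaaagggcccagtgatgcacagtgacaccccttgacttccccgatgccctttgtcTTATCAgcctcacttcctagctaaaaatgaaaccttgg
Serpina12, chr12:105272018-105272220: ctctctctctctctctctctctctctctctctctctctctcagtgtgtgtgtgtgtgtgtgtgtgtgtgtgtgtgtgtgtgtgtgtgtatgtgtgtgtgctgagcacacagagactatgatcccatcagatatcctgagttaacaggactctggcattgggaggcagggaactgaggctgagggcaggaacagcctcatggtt
Serpina6, chr12:104895519-104895690: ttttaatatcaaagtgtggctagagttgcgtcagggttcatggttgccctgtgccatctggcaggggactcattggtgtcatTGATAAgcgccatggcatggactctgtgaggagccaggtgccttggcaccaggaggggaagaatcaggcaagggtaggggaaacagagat
Serpina3g, chr12:105485858-105486114: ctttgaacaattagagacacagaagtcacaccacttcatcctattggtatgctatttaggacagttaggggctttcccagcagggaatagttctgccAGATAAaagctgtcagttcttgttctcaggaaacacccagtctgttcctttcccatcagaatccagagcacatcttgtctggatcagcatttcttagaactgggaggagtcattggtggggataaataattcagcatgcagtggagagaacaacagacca

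An exact WGATAR on either strand was present in 5 of the 6 Serpin OS, beside 82.9% of all 4409 OS. In stretches of equal width 5000 bp to the right of each site, 2 of the 6 held it, beside 31.9% for all OS. The Serpina12 site was the exception and contained a single AGATA that WGATAR does not cover. A single WGATAR was found in 4 Serpin OS and a pair in the site near Serpina3g. In Serpina6 the TGATAA at chr12:104895601-104895606 spanned the midpoint of the site. The TGATAA of the right Serpinb6a site was 37 bp from the midpoint, whereas the TGATAG of the left one was 100 bp away. Of the other short motifs searched on both strands, AGGAAG, the core bound by ETS factors, was the most frequent, in 4 of the 6 OS (42.8% of all OS, 23.5% of the stretches 5000 bp away). TGTTTGC, a forkhead variant, was in the left Serpinb6a site alone (6.5% of all OS), and TTGNNCAA, a loose C/EBP form that includes TTGCGCAA, was in the site near Serpina3g alone (7.2%). None of the 6 held the forkhead word TGTTTAC (6.3% of all OS), the HNF1 word GTTAAT (5.3%), the HNF4 word CAAAGTCCA (1.2%), the exact C/EBP word TTGCGCAA (0.1%) or the AP1 word TGANTCA (7.6%).

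Every peak carries the same score of 1000, so the number of a site in its list was the only order the data give, and the lists do not state what it follows. For the reproducibility filter, the study's methods sorted SPP peaks on their signal and MACS2 peaks on p-value, and whether the numbers keep that order was not tested. The 6 Serpin OS stood at numbers 313 to 3510 of 4409, with a median of 2526.5 beside 2205.0 for the whole list. The first 2000 numbers held 2 of the 6, the left Serpinb6a site and the Serpina12 site, beside 45.4% of all OS. In width the Serpin OS ranged from 143 to 320 bp (median 188 bp), and all OS from 80 to 631 bp (median 190 bp).

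**Figure D1:**
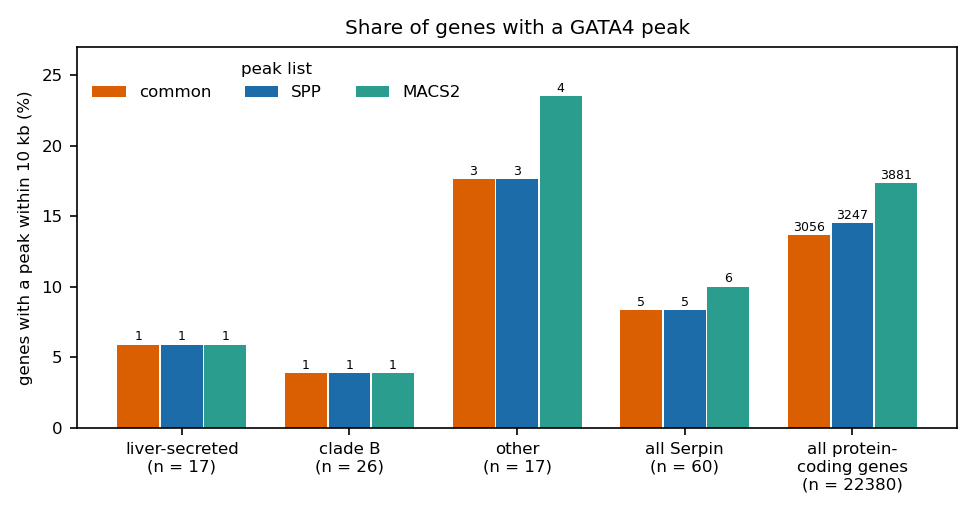
Share of genes with at least 1 peak midpoint in the gene body or within 10 kb (y axis, %) for the liver-secreted, clade B and other Serpin genes, all 60 Serpin genes and all 22380 protein-coding genes, with bars for the common, SPP and MACS2 lists and the number of genes above each bar. All Serpin genes stand at 8.33% in the common list beside 13.7% for all protein-coding genes, and clade B is lowest at 3.8%.

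The groups of the family are read against the same shares of all protein-coding genes, 13.7% in the common list, 14.5% in SPP and 17.3% in MACS2. Of 17 genes on a list of serpins known to enter plasma from liver, Serpina6 was the only one with a common OS (5.9%), and the count was 1 in the SPP and MACS2 lists as well. Serpina12, though also secreted, was not on that list and is counted below with the remaining serpins, so the count depends on this choice. The 16 without a site included Serpina1a to Serpina1e (α1-antitrypsin, the elastase inhibitor), Serpinc1 (antithrombin), Serpind1 (heparin cofactor II), Serpinf2 (antiplasmin), Serping1 (the inhibitor of complement C1), Serpina7 (thyroxine-binding globulin) and Serpina10 (the protein Z-dependent inhibitor of factor X). Clade B had 1 of 26 genes with a site (3.8%). The 17 remaining serpins had 3 (17.6%), among them Serpina12 and Serpina3g, and 4 (23.5%) with MACS2. With numbers this small, 1 gene moves such a share by several percent, and the 3 groups were not tested against each other.

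The family's genes were short and crowded. Their median length was 11.1 kb (range 5.03 to 124) beside 15.4 kb for all protein-coding genes. Across all protein-coding genes, those with a common OS had a median length of 33 kb and those without one 13.7 kb, while in the Serpin family the medians were 10.8 kb (5 genes) and 11.2 kb (55 genes). Counted on DNA rather than on genes, the merged Serpin windows covered 2.16 Mb and held 2.78 common OS per Mb, beside 2.54 per Mb in the merged windows of all protein-coding genes and 1.66 per Mb in the whole genome. The MACS2 list gave 3.70 beside 3.41 per Mb. The Serpin share was thus below that of all genes when counted per gene and close to it when counted per Mb.

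Serpinb6a (ENSMUSG00000060147.8, chr13:34009787-34094663, minus strand) held a pair of OS 1023 bp apart. The left site was 255 bp wide and number 313, 7.1% into the common list, and the highest placed of the 6. The right site was 143 bp wide and number 2673, 60.6% into it. MACS2 called them as separate peaks, number 559 (1102 bp, with 4 WGATAR) and number 3990 (372 bp, with 1). Both sites lay in intron 2 of the longest coding transcript, which has 7 exons. Of 16 annotated Serpinb6a transcripts, 6 started to the right of the sites, 34953 to 36030 bp away, and 4 of these, all coding, ran across both sites. The other 10 started to the left, and the sites were upstream of them, 30566 and 31589 bp from the closest of these starts. The same stretch also belongs to Nqo2, which encodes a quinone reductase and runs on the opposite strand through the Serpinb6a body. Its TSS was the nearest protein-coding TSS, 2105 and 3128 bp from the sites. A MACS2 peak without an SPP partner, number 4948 (chr13:34056013-34056840, 1 WGATAR), had its midpoint 101 bp upstream of the Nqo2 TSS. The paper lists both sites under Nqo2, whose expression fell in hepatocytes after joint excision of Gata4 and Gata6, at a relaxed false discovery threshold. Which of the genes the sites act on was not tested here, and when each OS went to its nearest TSS, Serpinb6a lost both of them.

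Serpina6 (ENSMUSG00000060807.6, chr12:104884840-104895422, minus strand) was the only Serpin gene with a common OS within 1 kb of its TSS. The 172 bp site had its midpoint 183 bp upstream of the TSS, and the MACS2 peak over it (703 bp) reached into the first exon. Its place was 72.4% into the common list (number 3194) but 34% into the MACS2 list (number 1997).

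Serpina12 (ENSMUSG00000041567.3, chr12:105266979-105282653, minus strand) held a 203 bp site in intron 3 of its 5 exons, 10534 bp from the TSS. It was number 1411, 32% into the common list, and number 1104 in the MACS2 list. Its left part is the CT and GT repeat seen in the sequence above, and 72.4% of its 48-base words occur once in the genome, compared with all of them in 4 of the other sites and 85.9% in the site near Serpina3g. The wider MACS2 peak (566 bp) held 1 WGATAR, the AGATAG at chr12:105272273-105272278, outside the common site. Whether the repeat affected the call was not tested.

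The site counted for Serpina3g (ENSMUSG00000041481.9, chr12:105474455-105480149, plus strand) lay 5869 bp downstream of that gene. It was number 3510, 79.6% into the list, and at 320 bp the widest of the 6. Its midpoint was 97 bp upstream of the start of Serpina3h (ENSMUSG00000041449.9, chr12:105486115-105491879, plus strand), which the annotation classes as a processed transcript and which therefore was not among the 60 genes. The site overlapped the first exon of Serpina3h. When Serpin genes of every annotated type were taken, which added 7 genes and was decided after the data were seen, the count rose to 6 genes and the 6 sites were the same. In MACS2, Serpina3b (chr12:105366206-105377755, plus strand) had a 1076 bp peak in intron 2, 4092 bp from its TSS, with 4 WGATAR. It was number 5518 of 5867 and overlapped no SPP peak.

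The Serpina3 genes arose by duplication, so that the DNA of the Serpina3h site recurs at its relatives. A blastn search of the Serpin clusters and single genes found 10 copies of it, with 65.8% to 94.6% identity, and none of them held a peak of any list. Some copies were partial. The one with 94.6%, near Serpina3e-ps, aligned over 111 bp of the 320 bp site, and those at Serpina3k and Serpina3m over 143 bp. At the Serpina3k and Serpina3m copies 25.5% and 21.2% of 48-base words were unique. The AGATAA to the left of the site's midpoint was covered by 7 of the copies. The stretch around it is printed for Serpina3h and for the 3 most similar of these, all on the plus strand and just upstream of a gene start, with the aligned letters in capitals.
Serpina3h, chr12:105485935-105485980: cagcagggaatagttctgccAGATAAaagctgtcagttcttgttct
Serpina3i, chr12:105501188-105501233: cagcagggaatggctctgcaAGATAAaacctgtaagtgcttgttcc
Serpina3g, chr12:105474282-105474327: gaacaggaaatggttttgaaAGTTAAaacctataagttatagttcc
Serpina3f, chr12:105452591-105452636: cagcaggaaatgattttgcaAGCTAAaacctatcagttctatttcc

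Serpina3i, 83.8% identical over the alignment, kept AGATAA, while Serpina3g (82.2%) had AGTTAA and Serpina3f (81.6%) had AGCTAA in its place. A copy near Serpina3d-ps had AGATAG, and those at Serpina3c and Serpina3n had a gap and ATAG. The seventh, on the Serpina3j side, had ACACAG. The aligned stretches at Serpina3f, Serpina3g and Serpina3j each still held 1 WGATAR at another position. The second WGATAR of the site, TGATAG, was kept at the copies of Serpina3i, Serpina3e-ps, Serpina3k, Serpina3m and Serpina3n, and the Serpina3c copy had TGATAA there. Serpina3i thus had both motifs in a stretch of which 86.3% of 48-base words were unique, close to the 85.9% of the occupied site, and no peak was called there. Its closest common OS was the Serpina3h site, 15.3 kb away.

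WGATAR was frequent at Serpin promoters without a site. From 250 bases before to 50 after the start of the longest coding transcript, 27 of 60 Serpin promoters (45%) held one, beside 6025 of 22372 (26.9%) of all protein-coding genes. The share was 10 of 10 for the Serpina3 genes, 10 of 17 (58.8%) for the liver-secreted list and 9 of 26 (34.6%) for clade B, and 0 of the 6 Serpina1 promoters held one. Serpina3m and Serpinb11 had 3 each. Only 1 of the 27 promoters with WGATAR, that of Serpina6, had a common OS within 1 kb of the TSS (3.70%), beside 258 of 6025 (4.28%) of all such promoters. In the whole Serpin windows there were 5686 WGATAR, 2.63 per kb, of which 6 lay in a common OS. That was 1.06 per 1000, beside 2.39 per kb and 1.36 per 1000 in the windows of all protein-coding genes.

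By clade, Serpina had 3 of 23 genes with a common OS (4 with MACS2) and Serpinb 1 of 26. Serpinc, Serpind, Serpinf, Serping, Serpinh and Serpini had none among 8 genes in any of the 3 lists. The shares of all protein-coding genes were 13.7% in the common list and 17.3% in MACS2. The Serpina counts are near these shares, 8 genes are too few to tell none from them, and the clades were not tested against each other. The 20 Serpina genes without a site were 15.3 to 1406 kb from the closest common OS (median 68.8 kb), and the 25 such Serpinb genes 17.5 to 895 kb (median 325 kb). Serping1 (24 kb), Serpinf2 (28.4 kb) and Serpinf1 (pigment epithelium-derived factor, 45.3 kb) were closer than Serpine3 (107 kb), Serpinh1 (the collagen chaperone, 116 kb), Serpini2 (654 kb), Serpind1 (765 kb), Serpinc1 (783 kb), Serpini1 (neuroserpin, 969 kb) and Serpine2 (protease nexin, an inhibitor of thrombin, 2310 kb). No common OS had its midpoint between 5.87 kb (Serpina3g) and 15.3 kb (Serpina3i) of a Serpin gene, so no gene sat at the edge of the 10 kb window. In the MACS2 list Serpina3a was just outside it, 10.2 kb from the peak in Serpina3b.

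**Figure D2:**
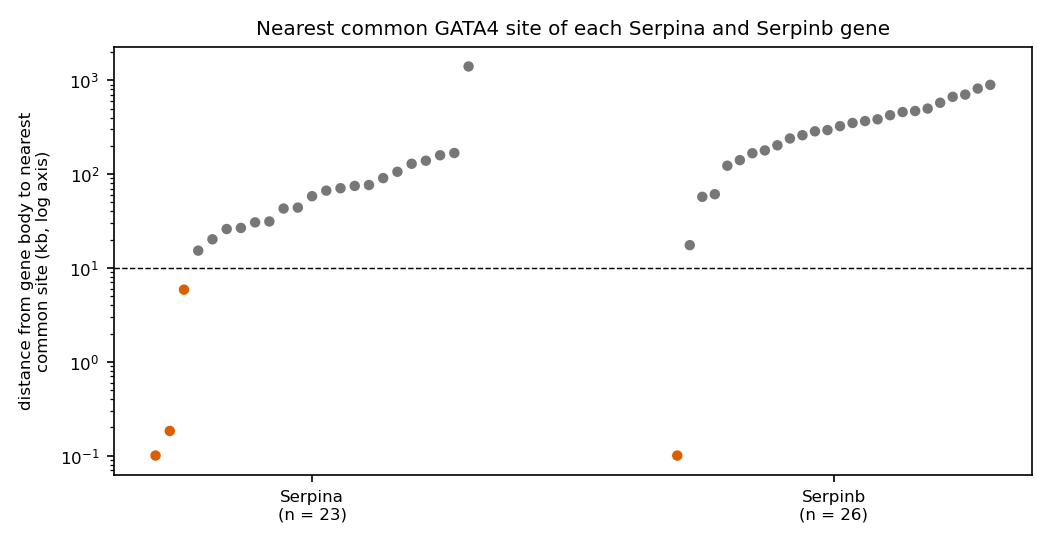
Distance from each of the 23 Serpina and 26 Serpinb genes to the nearest common GATA4 OS (y axis, kb, log scale), by clade with genes sorted within it, where the dashed line is the 10 kb limit, orange points are genes with a site, and the genes with a site in the gene body (distance 0) are drawn at the lowest level. The orange points lie at or under 5.87 kb and the closest grey point is Serpina3i at 15.3 kb.

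Genes whose neighbour lay within 500 kb were joined into clusters, which gave 5 clusters and 8 single genes. The Serpina cluster of chromosome 12 (Serpina10 to Serpina3n, chr12:104854885-105652539) had 22 genes in 798 kb and 4 common OS, 5.01 per Mb. These were the sites of Serpina6, Serpina12 and Serpina3g and one between genes, number 2061, 25.3 kb upstream of Serpina12. The MACS2 peak of Serpina3b made 5 (6.27 per Mb). Cluster densities here and below are over the span of the cluster without the 10 kb flanks and rest on few sites. They are therefore not comparable with the densities of the merged windows given above. All of the Serpina1 genes and Serpina3i to Serpina3n were without a peak in any list. The paper states, without showing the data, that GATA4 occupied some genes of the serpin gene cluster. By the same statement, none of them altered its expression once Gata4 and Gata6 were depleted, and the genes are not named.

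**Figure D3:**
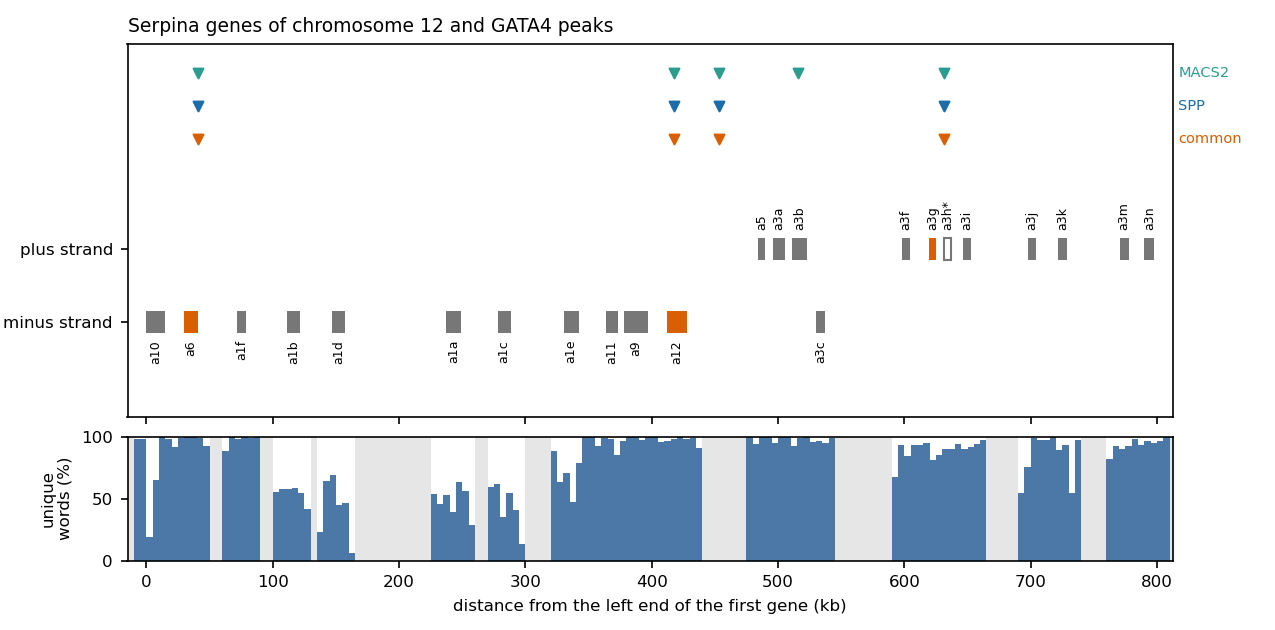
Map of the 22 Serpina genes of the chromosome 12 cluster (x axis, kb from the left end of Serpina10) by strand, with triangles at the midpoints of the common, SPP and MACS2 peaks, orange for genes with a common OS and an open box for Serpina3h (a3h*), which is not annotated as protein-coding. The lower panel gives the percent of 48-base words that occur once in the genome in 5 kb bins of the gene windows, with grey where none were counted. The 4 common OS are at Serpina6, Serpina12, to the right of Serpina12 and at Serpina3h, and the bins at Serpina1a to Serpina1d are low in unique words, as is a bin at Serpina10, while those at Serpina1f are high.

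The Serpinb genes form clusters on chromosomes 13 and 1, with a common OS at 1 of 15 and 0 of 11 genes, beside 13.7% of all genes, a gap of 1 gene that was not tested. That of chromosome 13 (Serpinb1a to Serpinb6a, chr13:32933961-34094663) had 15 genes in 1161 kb and 2 common OS, both in Serpinb6a at its right end, 1.72 per Mb. Its other 14 genes, among them Serpinb9 (the granzyme B inhibitor) and Serpinb1a (a neutrophil elastase inhibitor), had none in any list and were 17.5 to 500 kb from the closest. The cluster of chromosome 1 (Serpinb5 to Serpinb8, chr1:108757750-109505486) had 11 genes in 748 kb and no peak in any list. The closest common OS, number 3800, was 167 kb from Serpinb5 (maspin) and 895 kb from Serpinb8. The small clusters of Serpinf1 and Serpinf2 on chromosome 11 (29.8 kb) and of Serpini2 and Serpini1 on chromosome 3 (401 kb) also held no peak.

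**Figure D4:**
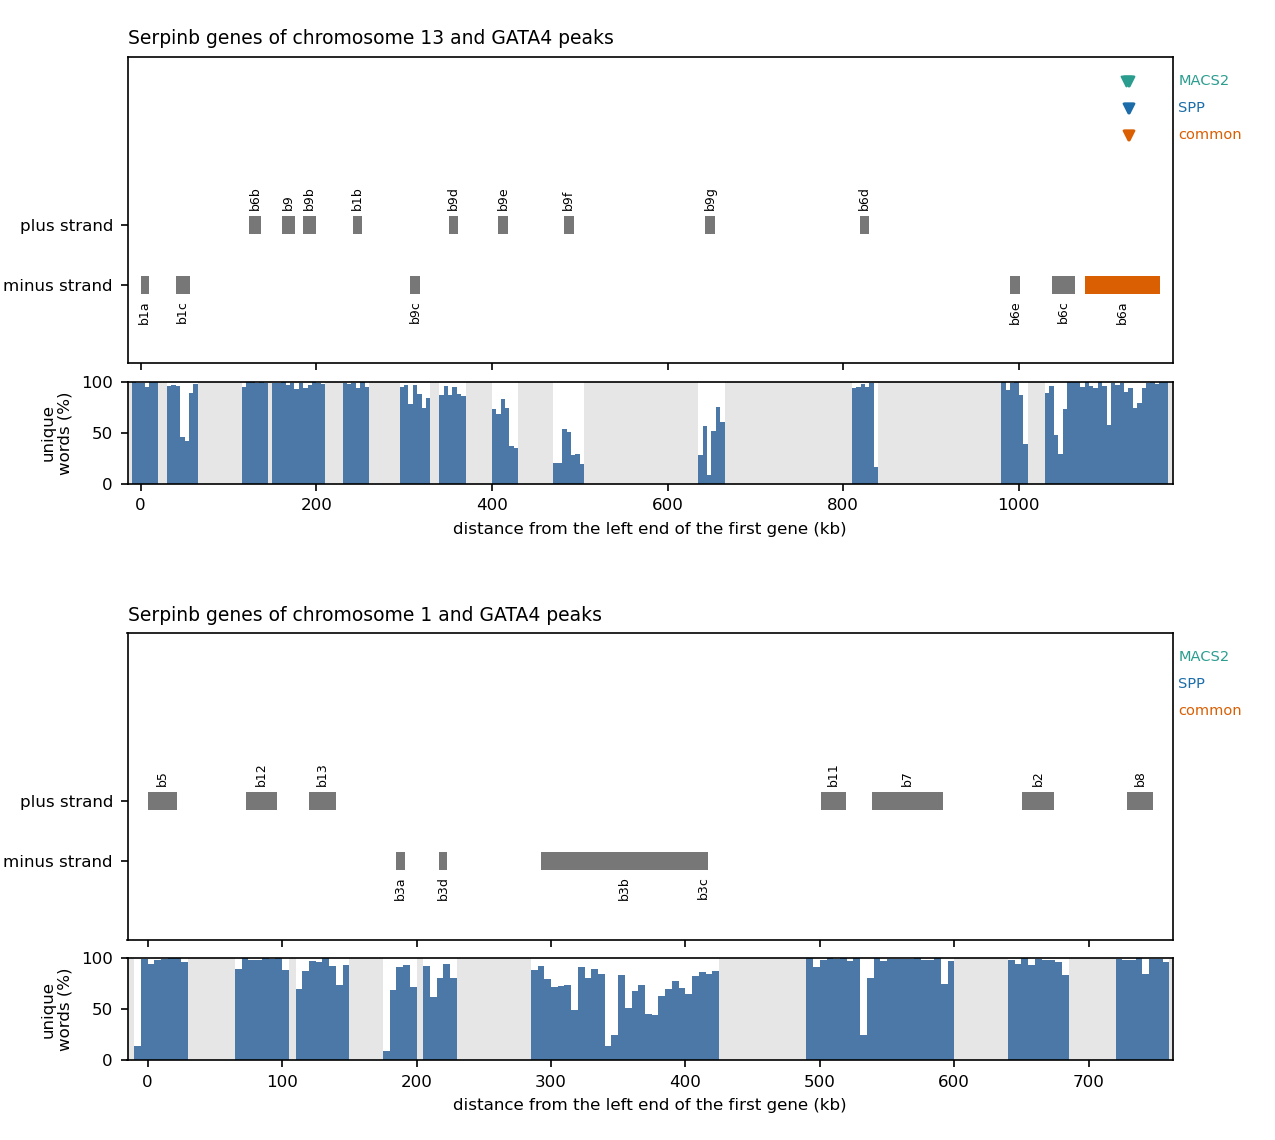
Maps of the 15 Serpinb genes of chromosome 13 (upper pair of panels) and the 11 of chromosome 1 (lower pair), drawn as for the Serpina cluster, with distances in kb from the left end of Serpinb1a and of Serpinb5. On chromosome 13 the common, SPP and MACS2 peaks all fall in Serpinb6a, and on chromosome 1 there are none.

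Near copies bear on which sites could be seen, since the authors kept uniquely placed 48-bp reads alone. In the merged Serpin windows, 86.3% of the 48-base words occur once in the genome, beside 91.5% in the windows of all protein-coding genes, sampled every 5000 bp. The low values were in the Serpina1 genes, from 42.3% to 54.3% in Serpina1a to Serpina1d, with 76.4% in Serpina1e and 97.8% in Serpina1f, in Serpinb9f (33.2%), Serpinb9g (43.4%) and Serpinb9e (61.7%), and in Serpinb3a (66.1%) and Serpinb3b (70.5%) of the chromosome 1 cluster. At these genes a missing peak says less than elsewhere. The share of unique words counts exact matches and is not read coverage. The median over the 55 genes without a common OS was 92.4% (33.2 to 98.5), beside 95.8% (89.0 to 97.3) over the 5 with one, and Serpinc1, Serpind1, Serpinf1, Serpinf2 and Serping1 were between 96.3% and 97.2%. The part of uniqueness in the count of sites was not tested.

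The proteases that serpins inhibit and their partners were looked up by a list of 21 genes. A common OS was near 3 of them (14.3%, beside 13.7% of all genes), all clotting factors. F7 and F10, which encode factors VII and X, shared one site (chr8:13036420-13036739, 1 WGATAR), 728 bp upstream of the F10 TSS and 771 bp downstream of F7. By ChIP-qPCR the paper also found GATA4 at the factor X promoter in purified hepatocytes, where it was lost after hepatocyte excision of Gata4. Factor X mRNA, however, did not change in the paper's RT-qPCR after excision of Gata4, alone or with Gata6. F11, for factor XI, had a site 1354 bp downstream of its end (chr8:46325117-46325223). MACS2 added F2, the prothrombin gene, with a peak in intron 4 (17.3% of all genes in that list). Elane, the elastase gene, Plg, the plasminogen gene, and Plat and Plau, which encode the plasminogen activators, had no peak in any list.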

How the data were processed

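Per the submitters' processing notes, reads were placed on mm9 with Bowtie 0.12.7, peaks came from MACS2 2.0.10 and, by the study's methods, a modified SPP, and bedtools 2.16.1 was listed. By those methods the authors kept uniquely placed reads, called peaks on the replicates and on their merged reads against merged input, set thresholds by rank reproducibility, and defined common peaks as SPP peaks that met a MACS2 peak. The 3 peak lists the authors deposited give coordinates, a number and a score, which is 1000 for every peak. Read counts behind a peak are not in the lists, so the depth of a single site is unknown and no interval per site is given. The input sample entered through the authors' calls alone.

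Peak midpoints were compared with GENCODE M1 gene bodies extended by 10 kb. Coordinates count from 1, and sequences came from the NCBI Build 37 genome. Exact motifs and the uniqueness of 48-base words (chromosomes of the build) were computed with Python 3.11.15, numpy 2.4.6, pandas 2.3.3, numba 0.67.0 and pysam 0.24.0, Wilson intervals with scipy 1.17.1, copies with blastn 2.17.0, and figures with matplotlib 3.10.9. On simulated data, 120000 of 120000 gene and peak pairs and 200 of 200 planted motifs were right. Intervals cover counting error alone, and no p-value was computed. Values are given for every gene with a common OS, then for genes with a peak in another list only, and the rest by clade and cluster. The exception is 1 gene with a common OS, which is counted in the totals but not reported here. The genes and lists were chosen with earlier results of these data known. Alternatives were other windows, assignments, lists, transcripts, motifs and word lengths.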

Additional observations from a re-analysis of the deposited data

How the results depend on the processing

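Of 56 alternatives over 8 results, 38 left the count within 1.5 times of the reported one and 18 were called moved. The share of unique words was judged otherwise, as moved when outside its Wilson interval. With 2161094 words that interval is so narrow that small changes fall outside it, and both of its alternatives were called moved. With gene bodies alone, 2 Serpin genes (Serpinb6a and Serpina12) and 3 OS were left, with 0 liver-secreted serpins and 0 protease and cofactor genes, beside 7.7% of all protein-coding genes. With a 50 kb window there were 17 Serpin genes (28.3%, beside 27.7% of all genes) with 11 OS, 6 liver-secreted serpins, 2 clade B genes and 9 protease and cofactor genes. The first 2000 OS left 2 Serpin genes with 2 OS, 0 liver-secreted serpins and 0 protease and cofactor genes, beside 6.7% of all genes. The nearest TSS within 50 kb left 0 clade B genes and 4 Serpin genes (6.7%, beside 11.4%). A 5 kb window lost Serpina3g (4 genes, beside 11.3%). WGATAR lay in the central 100 bp of 3 of the 6 OS. All 8 MACS2 peaks held it somewhere in their whole width, but they are wider, 372 to 1102 bp beside 143 to 320 bp. The share of unique words was 81.8% with 36-base words and 87.8% in gene bodies. The serpin share was below that of all genes in every setting listed here except the 50 kb window.

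No paired analysis was possible because the lists used here cover both replicates together and no result comes from a test. The values rest on 1 pooled ChIP sample, thresholds set by the authors and no read counts.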

Other observations

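Several Serpin genes had a common OS beyond 10 kb but within 50 kb, and some of these sites lay in other genes. Serping1 (the complement inhibitor) had a pair of them, numbers 910 and 3836, at 25 and 24.0 kb, both inside Ube2l6, 1624 and 568 bp downstream of its TSS. Serpinf2 and Serpinf1 had the same site, number 1605, at 28.4 and 45.3 kb, which lay 54 bp upstream of the Tlcd2 TSS and held 2 WGATAR. Serpinb1a had number 3056 at 17.5 kb, a 102 bp site with Wrnip1 as the nearest protein-coding gene. The site between Serpina12 and Serpina5, number 2061 (chr12:105307924-105308035, 112 bp, 1 WGATAR), was 25.3 kb upstream of Serpina12 and 31.3 kb from Serpina5, and the MACS2 list held it as number 2024. Under the 10 kb rule these sites were counted for no Serpin gene.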
